A study of Mus musculus with 20 samples.

Results

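The transforming growth factor beta (TGF-beta) ligands, their receptors and their latent binding proteins were followed through tendon growth in mice. The set was defined as the rows of the deposited gene count table named Tgfb1, Tgfb2, Tgfb3, Tgfbr1, Tgfbr2, Tgfbr3, Ltbp1, Ltbp2, Ltbp3 and Smad3. All 10 were found among the 24885 genes of the table, and all 10 passed the filter on low counts that left 18918 genes for testing. RNA had been sequenced from the plantaris tendon of mice of 5 groups with 4 libraries each. Every group carried IGF1Rflox/flox, so that both Igf1r alleles could be cut by a recombinase. WT mice were ScxCreERT2-/- and lacked the recombinase, and KO mice were ScxCreERT2+/+, with a tamoxifen-activated recombinase driven by Scx, which encodes scleraxis, a transcription factor of tendon cells. The WT day 0 mice received neither tamoxifen nor a growth stimulus, whereas the WT and KO mice of day 7 and day 14 received both. The stimulus and tamoxifen therefore cannot be told apart in any comparison with day 0, and no KO group without the stimulus was analysed here. The labels do not say that the libraries of a group came from separate animals, so the p-values rest on the spread from library to library, part of which can be technical.

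TGF-beta is made as a precursor and leaves the cell in a latent form, held by its own propeptide, which is linked to a latent TGF-beta binding protein that fixes the complex to the extracellular matrix. Integrins and proteases free the ligand, which binds the type II receptor Tgfbr2. This receptor recruits and activates the type I receptor Tgfbr1, and Tgfbr1 in turn phosphorylates Smad2 and Smad3, which enter the nucleus and regulate genes. In tendon the pathway is known for its part in forming the tissue, in maintaining Scx expression and in matrix production under load.

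The promoters of 4 members are shown because these genes carried the changes reported below: Tgfb2 and Smad3, which moved together, Ltbp2, which moved the other way, and Ltbp3, the binding protein that differed between genotypes. They are RefSeq sequences on GRCm38.p6, from 250 bases before the gene start to 50 after it, written 5′ to 3′ on the gene's strand. A table of such promoters held 8 of the 10 members, all but Tgfb3 and Tgfbr3. Capitals mark CAGAC or its reverse complement GTCTG, the short sequence that Smad3 binds, and TGANTCA, the site of AP-1 factors, which work with Smads at many target genes.
Tgfb2, chr1:186705940-186706239, minus strand: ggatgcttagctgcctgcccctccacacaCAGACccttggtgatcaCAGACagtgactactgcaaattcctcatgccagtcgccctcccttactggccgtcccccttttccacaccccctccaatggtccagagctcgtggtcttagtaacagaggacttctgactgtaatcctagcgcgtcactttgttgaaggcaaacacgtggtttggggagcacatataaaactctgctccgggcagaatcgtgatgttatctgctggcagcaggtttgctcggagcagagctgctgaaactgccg
Smad3, chr9:63757945-63758244, minus strand: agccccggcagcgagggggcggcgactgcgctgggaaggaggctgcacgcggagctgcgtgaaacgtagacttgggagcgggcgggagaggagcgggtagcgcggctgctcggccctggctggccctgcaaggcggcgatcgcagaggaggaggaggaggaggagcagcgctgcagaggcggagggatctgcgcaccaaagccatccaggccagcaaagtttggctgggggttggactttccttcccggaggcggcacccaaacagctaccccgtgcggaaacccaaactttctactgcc
Ltbp2, chr12:84876442-84876741, minus strand: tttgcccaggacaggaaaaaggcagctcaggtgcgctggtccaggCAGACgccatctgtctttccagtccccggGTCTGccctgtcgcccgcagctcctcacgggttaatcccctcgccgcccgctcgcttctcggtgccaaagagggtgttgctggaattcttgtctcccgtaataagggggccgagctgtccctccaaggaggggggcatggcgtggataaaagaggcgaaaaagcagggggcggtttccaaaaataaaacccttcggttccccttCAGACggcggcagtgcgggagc
Ltbp3, chr19:5740650-5740949, plus strand: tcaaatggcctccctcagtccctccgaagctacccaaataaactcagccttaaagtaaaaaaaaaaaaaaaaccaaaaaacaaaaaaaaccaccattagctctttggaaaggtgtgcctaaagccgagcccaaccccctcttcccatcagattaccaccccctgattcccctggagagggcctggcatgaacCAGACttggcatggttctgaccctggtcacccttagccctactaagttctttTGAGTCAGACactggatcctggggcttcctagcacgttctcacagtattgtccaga
The Tgfb2 promoter held 2 CAGAC matches, the Ltbp2 promoter 3 and the Ltbp3 promoter 2, counting both strands, while the Smad3 promoter held 0. Among all 32851 such promoters, 49.6% held at least 1 such match, so its presence is common. The Ltbp3 promoter was the one of the 4 with a TGANTCA match, which overlapped one of its CAGAC matches, and 7.81% of all promoters held this motif. The palindrome GTCTAGAC, present in 0.213% of all promoters, was in none of these 4. The Tgfb2 promoter held 1 TATA box (TATAAA, 13.6% of all promoters), and the Smad3 and Ltbp2 promoters held 2 GC boxes each (GGGCGG, 35.7% of all promoters). Ltbp2 also held 1 match to CATCTG, an E-box that scleraxis can bind, as did 17.2% of all promoters. These matches describe letters in a window and do not show that a factor binds there.

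Library depth ranged from 32.3 to 63.5 M counts. Levels are given as CPM (counts scaled to library size) after TMM scaling, as the mean ± SD of 4 libraries. Igf1r was not lower in the libraries labelled KO, which had 51.3 ± 2.81 CPM at day 7 (WT 49.1 ± 2.17) and 53.1 ± 5.0 CPM at day 14 (WT 45.3 ± 3.63). Reads were counted over the gene as a whole, so loss of the floxed stretch alone could not be read from them, and they are no check of the genotypes. Scx was higher in KO, at 736 against 50.5 CPM at day 7 and 1250 against 114 CPM at day 14. The tendon markers were present in every group, none of the 10 at 0. Their summed level, 45400 to 56600 CPM in WT day 7 and 85300 to 106000 CPM in KO day 7, was mostly that of 2 collagen genes, Col1a1 (mean 19500 in WT and 39900 in KO) and Col1a2 (22400 and 39700). Of the 10 tendon markers 5 were called higher in KO day 7 than in WT day 7 and 0 lower. Scx, the gene that drives the recombinase, was 1 of these 5. The markers differed in this: Fmod had 1470 CPM in WT and 2950 in KO and Comp 997 and 2400 CPM. Tnmd (214 and 226 CPM) and Mkx (25.1 and 25.8 CPM) were close between those groups. At day 14 Tnmd had 1490 CPM in WT and 881 CPM in KO. Of the 10 markers 1 was called higher in KO at day 14, which was Scx itself, and 0 lower. Skeletal muscle fibre markers were also read in every group, all 15 of them, with a summed level of 28300 to 71400 CPM in WT day 0, 239 to 1950 in WT day 7, 5480 to 13400 in KO day 7, 3100 to 24400 in WT day 14 and 1710 to 28200 in KO day 14. In these bulk libraries fewer cells of a type and less RNA per cell cannot be told apart.

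Per length of exon, Tgfb3 was the highest of the ligand genes in every group. At WT day 0 it stood at 83.2 ± 16 CPM per kb, against 19.4 ± 1.14 for Tgfb2 and 11.3 ± 1.15 for Tgfb1. Its share of the summed ligand level per length stayed between 69.8% and 73.7% in the means of the 5 groups. Among the receptors, Tgfbr3, a co-receptor also called betaglycan that presents ligand to the signalling pair, led at WT day 0 with 76.1 ± 10 CPM per kb, ahead of Tgfbr2 at 45.7 ± 2.93 and Tgfbr1 at 20.3 ± 2.68. This order did not hold during growth. Tgfbr3 made up 53.4% ± 2.79 of the receptor level at WT day 0 and 30.3% ± 2.91 at WT day 7, when Tgfbr2 made up 50.6% ± 1.28. In the 3 other groups of growing tendon Tgfbr2 also had the largest mean share, from 53.8% to 57.3%. Of the binding proteins, Ltbp3 led at WT day 0 with 52.2% ± 0.43 of the level per length. At WT day 7 Ltbp2 led with 49.0% ± 4.78, and at WT day 14 Ltbp3 led again with 55.1% ± 4.12. Smad3 stood at 34.4 ± 3.15 CPM per kb at WT day 0 and 14.3 ± 1.11 at WT day 7.

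**Figure D1:**
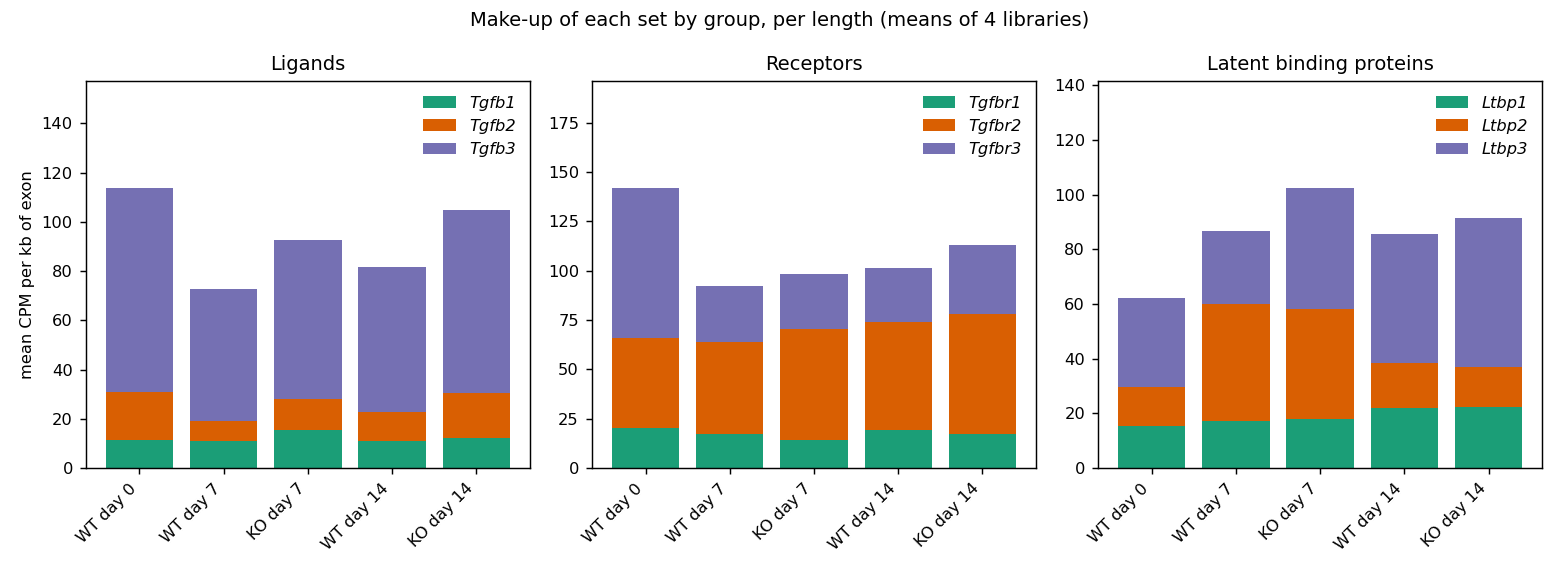
Stacked bars of the mean level per length (CPM per kb of exon, means of 4 libraries) of the 3 ligands, 3 receptors and 3 latent binding proteins in the 5 groups. Tgfb3 makes up the largest piece of every ligand bar, Tgfbr3 shrinks from 53.4% of the receptor bar at WT day 0 to 30.3% at WT day 7, and Ltbp2 widens to 49.0% of the binding protein bar at WT day 7.

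Tgfb2 (ENSMUSG00000039239, chromosome 1, 186622792 to 186705989, minus strand, GRCm38) encodes a ligand that depends on Tgfbr3 for strong binding to the signalling receptors. In the order of replicate numbers, it had 104, 112, 120 and 114 CPM at WT day 0, 38.4, 41.9, 44.7 and 60.3 at WT day 7, and 66.4, 60.1, 85.7 and 65.1 at WT day 14. In KO it had 67.9, 67.8, 74 and 77 CPM at day 7 and 105, 93.9, 125 and 99.3 at day 14. All libraries of WT day 0 were above all of WT day 7 and WT day 14, and at each day all KO libraries were above all WT libraries. The order of the group means was WT day 0, KO day 14, KO day 7, WT day 14 and WT day 7, and of the neighbours in it only KO day 14 and KO day 7 did not overlap.

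Tgfb3 (ENSMUSG00000021253, chromosome 12, 86056745 to 86079041, minus strand), a ligand known for its part in the fusion of the palate, had 285, 343, 211 and 288 CPM at WT day 0 and 195, 177, 180 and 172 at WT day 7. Its WT day 14 libraries had 152, 202, 235 and 206 CPM, its KO day 7 libraries 203, 228, 220 and 224, and its KO day 14 libraries 294, 249, 265 and 203. The lowest WT day 0 library, replicate 3, lay above every WT day 7 library and below 1 WT day 14 library. Tgfb1 (ENSMUSG00000002603, chromosome 7, 25687002 to 25705077, plus strand), the ligand most used by immune cells and in wound repair, had 56.4, 65.5, 52.4 and 54.3 CPM at WT day 0, 44.4, 52.7, 65.2 and 62.5 at WT day 7 and 42.8, 41.2, 61.3 and 73.8 at WT day 14. It had 71.1, 85.2, 89.6 and 68.2 CPM at KO day 7 and 62.6, 64.9, 67.2 and 50.1 at KO day 14. KO day 7 was the one group whose Tgfb1 values were all above those of WT day 0, WT day 7 and KO day 14.

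Tgfbr3 (ENSMUSG00000029287, chromosome 5, 107106570 to 107289629, minus strand) had 495, 592, 451 and 454 CPM at WT day 0. It had 139, 175, 196 and 225 CPM at WT day 7 and 153, 151, 182 and 230 at WT day 14. In KO it had 186, 177, 197 and 166 CPM at day 7 and 241, 223, 254 and 185 at day 14. All 16 libraries of growing tendon were thus below the lowest of WT day 0, and the 4 growing groups overlapped their neighbours in the order of means. The signalling receptors moved less. Tgfbr2 (ENSMUSG00000032440, chromosome 9, 116084293 to 116175360, minus strand) ranged from 340 to 395 CPM at WT day 0, 329 to 449 at WT day 7, 401 to 505 at KO day 7, 362 to 528 at WT day 14 and 411 to 567 at KO day 14, and every group overlapped its neighbour. Tgfbr1 (ENSMUSG00000007613, chromosome 4, 47353222 to 47414931, plus strand) ranged from 112 to 155 CPM at WT day 0, 97.4 to 129 at WT day 7, 88.3 to 96.8 at KO day 7, 104 to 148 at WT day 14 and 107 to 118 at KO day 14. KO day 7 was the lowest group for Tgfbr1 and did not overlap any other.

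Ltbp2 (ENSMUSG00000002020, chromosome 12, 84783212 to 84876532, minus strand) belongs to the family by structure, sits on elastic microfibrils and, unlike Ltbp1 and Ltbp3, is not known to carry latent TGF-beta. It had 104, 135, 115 and 110 CPM at WT day 0, 274, 412, 365 and 351 at WT day 7 and 102, 106, 152 and 173 at WT day 14. In KO it had 488, 358, 211 and 255 CPM at day 7 and 90.4, 165, 115 and 103 at day 14. Both day 7 groups lay above every library of the 3 other groups, and KO day 7 was the most spread of all groups (SD of 37.6% of the mean). Ltbp3 (ENSMUSG00000024940, chromosome 19, 5740904 to 5758532, plus strand), a carrier of latent TGF-beta, had 277, 323, 292 and 286 CPM at WT day 0, 238, 239, 248 and 255 at WT day 7 and 318, 410, 461 and 534 at WT day 14. It had 412, 377, 393 and 430 CPM at KO day 7 and 512, 486, 540 and 445 at KO day 14. WT day 7 was below every other group for Ltbp3, and no KO library was as low as any library of WT day 0 or WT day 7. Among WT day 14 libraries, the summed tendon marker level, again mostly Col1a1 and Col1a2, was 57500, 73700, 86600 and 144000 CPM in the same order of replicates as the Ltbp3 values above, and its part in them was not tested. Ltbp1 (ENSMUSG00000001870, chromosome 17, 75005568 to 75392512, plus strand), the other common carrier, ranged from 156 to 175 CPM at WT day 0 and 160 to 200 at WT day 7. It had 190, 326, 244 and 180 CPM at WT day 14, where replicate 2 was the highest library, and ranged from 159 to 243 at KO day 7 and 215 to 276 at KO day 14.

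Smad3 (ENSMUSG00000032402, chromosome 9, 63646767 to 63757994, minus strand) had 178, 215, 193 and 178 CPM at WT day 0, 70.0, 83.1, 82.0 and 81.7 at WT day 7 and 107, 120, 134 and 125 at WT day 14. In KO it had 96.9, 89.8, 101 and 114 CPM at day 7 and 146, 136, 163 and 132 at day 14. The order of the means was WT day 0, KO day 14, WT day 14, KO day 7 and WT day 7, with WT day 0 above and WT day 7 below all others without overlap. This is nearly the order of Tgfb2, in which KO day 7 and WT day 14 change places.

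**Figure D2:**
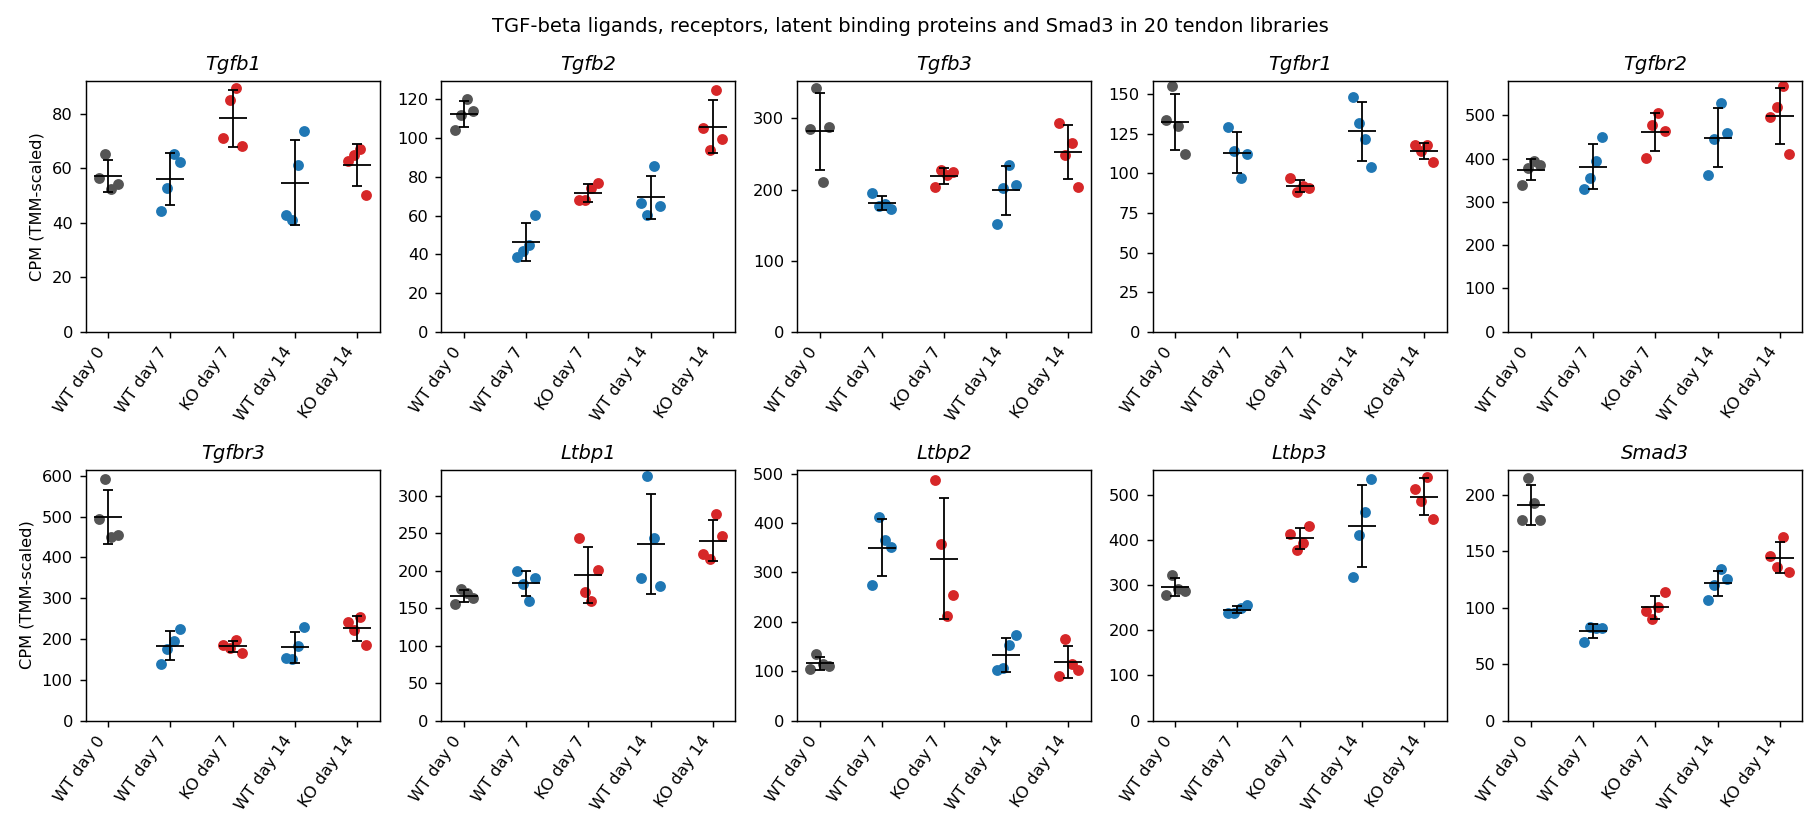
CPM (TMM-scaled, axes from 0) of the 10 genes in the 20 libraries, 1 point a library, with the mean and SD of each group as a bar and whiskers. Tgfb2, Tgfbr3 and Smad3 are highest at WT day 0, Ltbp2 peaks in both day 7 groups, and Ltbp3 is lowest at WT day 7, where its 4 libraries sit between 238 and 255 CPM.

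The first comparison sets WT day 7 beside WT day 0 and spans the first week of growth together with tamoxifen. The ligand genes Tgfb2 and Tgfb3, the co-receptor Tgfbr3 and the transducer Smad3 fell, and Ltbp2 rose. Tgfbr3 fell by 1.44 on the log2 scale (SE 0.15, adjusted p = 1.09e-07), Tgfb2 by 1.28 (SE 0.13, adjusted p = 5.56e-08) and Smad3 by 1.27 (SE 0.10, adjusted p = 1.41e-09), so that each was 2.41- to 2.71-fold lower. Tgfb3 fell by 0.64 (SE 0.14, adjusted p = 0.00046) and Ltbp2 rose by 1.60 (SE 0.24, adjusted p = 1.71e-05), or 3.02-fold. Ltbp3 fell by 0.26 (SE 0.11) at an adjusted p of 0.0488, a call that ended when any of 15 of the 20 libraries was left out. In all, 1 of the 10 genes rose and 5 fell, where 64.1% of all tested genes passed the same threshold (edgeR, 32.3% higher and 31.8% lower), so a share of called genes this high was common to the whole table. The WT day 7 and WT day 0 libraries did not overlap for the 6 called genes, where 60.6% of all tested genes did not. The median log2 change was -0.25 over the 10 genes and 0.02 over all tested genes. Tgfb1 at -0.02 (95% interval -0.37 to 0.32), Tgfbr2 at 0.03 (-0.23 to 0.28), Ltbp1 at 0.14 (-0.19 to 0.47) and Tgfbr1 at -0.23 (-0.45 to -0.01, adjusted p = 0.0614) did not pass. In the authors' deposited table Tgfbr1 passed, at -0.25 with a false discovery rate of 0.043.

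Markers of other cells moved beside these values. The 12 macrophage markers summed to 2170 to 2510 CPM at WT day 0 and 4500 to 7960 CPM at WT day 7. The 8 adipocyte markers summed to 1250 to 1920 CPM at WT day 0 and 269 to 595 CPM at WT day 7. The 8 paratenon and progenitor fibroblast markers summed to 2930 to 3300 CPM and 1660 to 2270 CPM. Of the other lists, 6 of 6 neutrophil markers rose, and of 6 T cell markers 1 rose and 1 fell. Markers that fell were 15 of 15 of muscle, 8 of 8 of Schwann cells and 6 of 10 of endothelial cells. Of 8 pericyte and smooth muscle markers 6 fell and 1 rose. With the summed muscle marker level as a covariate, Tgfb2 stood at -1.45, Tgfb3 at -0.95, Tgfbr3 at -1.63, Smad3 at -1.52 and Ltbp2 at 1.53, each still past the threshold, while Ltbp3 at -0.36 (adjusted p = 0.211) no longer passed. Because the muscle sums of WT day 0 and WT day 7 did not overlap, this fit cannot tell muscle content from the group. The part of the other cell types in the changes was not tested.

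Other genes of the pathway were counted by list, to be read against the 64.1% of all tested genes that passed here (32.3% higher and 31.8% lower). Of 27 genes of latency, activation and ligand binding, 18 rose and 5 fell, with a median log2 change of 0.68. The microfibril gene Fbn2, to whose family latent complexes attach, rose from 2.11 ± 0.428 to 139 ± 32.6 CPM (log2 change 6.04, adjusted p = 1.1e-12), and the membrane protease gene Mmp14 rose by 2.06. Within the same list Ltbp4, the family member outside the set, fell from 683 ± 55 to 115 ± 15.4 CPM (log2 change -2.56, adjusted p = 4.18e-09). The proteoglycan genes Dcn and Fmod, whose products bind TGF-beta, fell by 1.95 and 1.94. Of 17 signal transduction genes 4 rose and 4 fell. Smad2, the partner of Smad3, rose by 0.50 while Smad3 fell, and Zfyve9, which encodes the anchor SARA that brings Smads to the receptor, fell by 1.30. Of 16 negative regulators 4 rose and 8 fell, with the inhibitory Smad gene Smad6 at -1.93 and the Smad corepressor gene Skil at 0.89. Of 28 genes commonly read as targets of the pathway 23 rose and 1 fell, with a median of 1.47. They included Adam12, which rose from 2.64 ± 0.713 to 292 ± 32.5 CPM, Lrrc15, which rose by 6.52, and Tnc, which rose by 3.63. Many factors other than TGF-beta regulate these genes.

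At WT day 14 Tgfbr3, Tgfb2, Smad3 and Tgfb3 were still lower than at WT day 0, Ltbp3 and Ltbp1 were higher, and the interval of the Ltbp2 difference included 0. Against WT day 0, Tgfbr3 stood at -1.48 (SE 0.15, adjusted p = 1.57e-07), Tgfb2 at -0.70 (adjusted p = 0.000122), Smad3 at -0.65 (adjusted p = 9.88e-06) and Tgfb3 at -0.50 (adjusted p = 0.00444). Ltbp3 rose by 0.55 (SE 0.11, adjusted p = 0.00045), and Ltbp2 stood at 0.20 (95% interval -0.30 to 0.71). Ltbp1 rose by 0.50 (SE 0.16, adjusted p = 0.0113), but without WT day 14 replicate 2 it stood at 0.30 (adjusted p = 0.0746). With the muscle covariate Ltbp1 stood at 0.29 (adjusted p = 0.239). Because the muscle sums of WT day 0 and WT day 14 did not overlap, this fit cannot tell muscle content from the group. In all, 2 of the 10 genes rose and 4 fell, where 54.3% of all tested genes passed (28% higher and 26.2% lower). Libraries of both groups did not overlap for 4 of the 10, Tgfb2, Tgfbr3, Ltbp1 and Smad3, where 46.1% of all tested genes did not. The medians were -0.07 over the 10 genes and 0.02 over all. Among cell markers, 9 of 15 of muscle, 8 of 8 of adipocytes and 7 of 8 of Schwann cells fell. In the other direction 9 of 12 macrophage and 6 of 6 neutrophil markers rose. The part of these cells in the changes was not tested. Of the latency and activation genes 17 rose and 4 fell, with the proteoglycan gene Bgn at 1.98 and Ltbp4 at -0.85, and of the transduction genes 3 rose and 6 fell. The negative regulators split evenly, with 6 up and 6 down, among them Pmepa1, an inhibitor that the pathway itself induces, at 0.93 and Smad6 at -1.94. Of the target genes 21 rose and 1 fell, with Postn at 6.05, Lrrc15 at 6.94 and Tgfbi at -0.61.

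Between WT day 7 and WT day 14, Ltbp3 rose by 0.81 (SE 0.11, adjusted p = 4.4e-05), Smad3 by 0.62 (SE 0.09, adjusted p = 9.73e-05) and Tgfb2 by 0.58 (SE 0.13, adjusted p = 0.00191), while Ltbp2 fell by 1.39 (SE 0.24, adjusted p = 0.000386). These 3 rises and 1 fall of 10 compare with 30.4% of all tested genes past the threshold (16% higher and 14.3% lower). Ltbp2, Ltbp3 and Smad3 did not overlap between these groups, 3 of 10 genes, where 25.6% of all tested genes did not. The medians were 0.20 and 0.02. Tgfbr3 at -0.04 (95% interval -0.35 to 0.27), Tgfb3 at 0.13 and Tgfb1 at -0.04 did not pass. Of the 27 latency and activation genes 13 rose and 5 fell, among them the matrix protease gene Htra1 at 1.41 and Ltbp4 at 1.72, and on the other side Nrros, which anchors latent TGF-beta on macrophages and microglia, at -1.16. Over the same interval 11 of 12 macrophage markers fell, with sums of 4500 to 7960 CPM at day 7 and 3680 to 4250 CPM at day 14. In the other direction 14 of 15 muscle markers rose (median log2 change 3.33), as did 9 of 10 tendon markers (median 0.88) and 6 of 8 pericyte and smooth muscle markers (sums of 539 to 782 CPM and 909 to 2190 CPM). By replicate, the WT day 14 pericyte sums of 1430, 909, 1210 and 2190 CPM had the same order as the muscle sums of 14400, 3100, 5030 and 24400 CPM. The pericyte list includes Des, which muscle fibres also express. With the muscle covariate Ltbp3 stood at 0.87, Smad3 at 0.75, Tgfb2 at 0.67 and Ltbp2 at -1.36, each still past the threshold. Because the muscle sums of WT day 7 and WT day 14 did not overlap, this fit cannot tell muscle content from the day. The part of the other markers was not tested. Of the 28 target genes 6 rose and 5 fell, and of the 16 negative regulators 6 rose and 1 fell. The median over the target genes was -0.05.

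**Figure D3:**
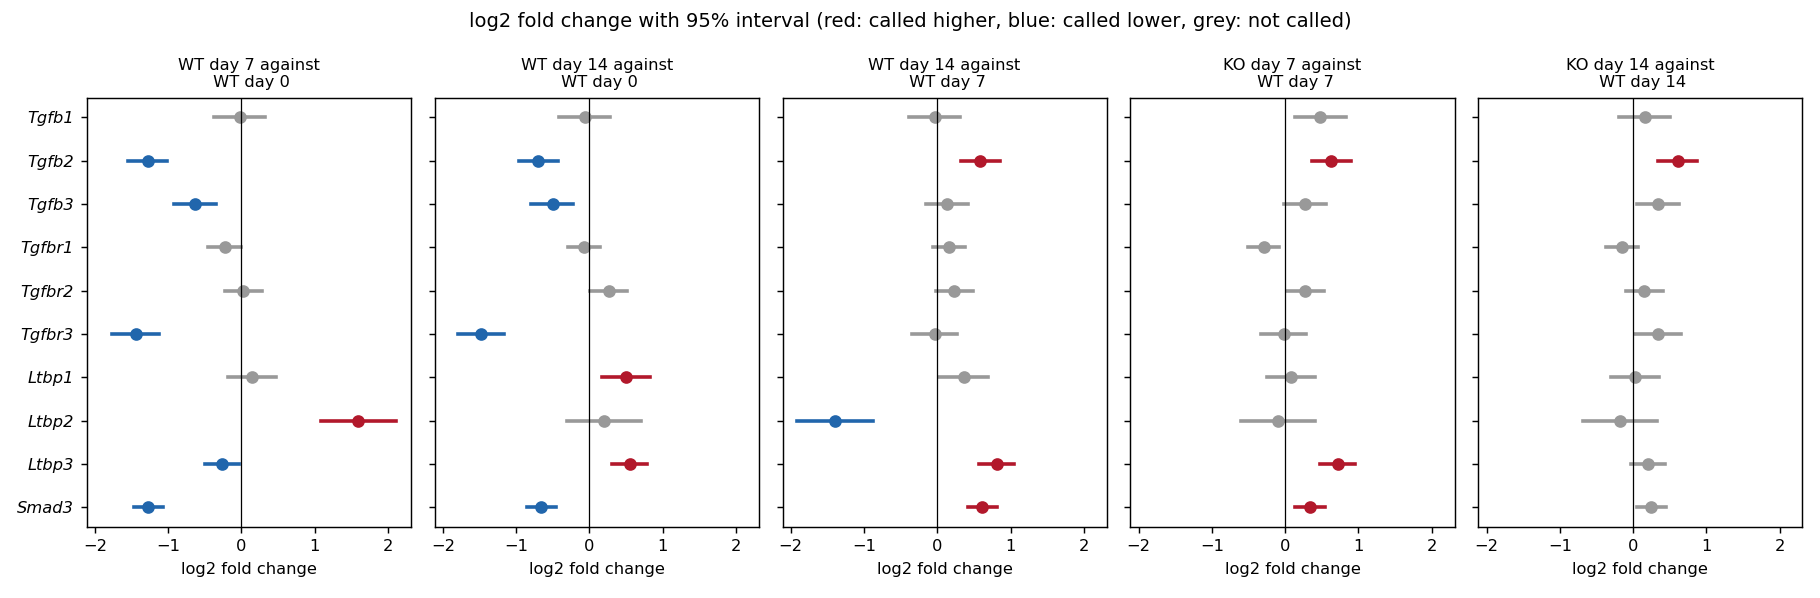
Log2 fold changes of the 10 genes (points) with 95% intervals (lines) in 5 comparisons, coloured by the call at an adjusted p below 0.05. Tgfb2 is called lower in both comparisons with WT day 0 and higher in the 3 others, and it is the one gene called in the comparison of KO with WT at day 14.

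The comparison of KO with WT at day 7 asks how growing tendon differs when the recombinase is present. Tgfb2, Ltbp3 and Smad3 were higher in KO. Ltbp3 was higher by 0.72 (SE 0.11, adjusted p = 0.000563), or 1.64-fold, Tgfb2 by 0.63 (SE 0.13, adjusted p = 0.00346), or 1.55-fold, and Smad3 by 0.34 (SE 0.09, adjusted p = 0.0219), or 1.26-fold. The Smad3 call ended without WT day 7 replicate 1 (0.29, adjusted p = 0.0601) or without KO day 7 replicate 4 (0.27, adjusted p = 0.0883). These are 3 of 10 genes higher and 0 lower, where 14.8% of all tested genes passed (9.39% higher and 5.42% lower). The medians were 0.27 over the 10 genes and -0.01 over all. These 3 genes also rose from WT day 7 to WT day 14, a comparison that shares the WT day 7 libraries with this one.

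For 6 of the 10 genes the KO and WT libraries of day 7 did not overlap, where 24.4% of all tested genes did not. Besides the genes called, these were Tgfb1, Tgfb3 and Tgfbr1, which did not pass the threshold. Tgfb1 stood at 0.48 (95% interval 0.13 to 0.83, adjusted p = 0.0566), Tgfb3 at 0.27 (-0.01 to 0.56, adjusted p = 0.186) and Tgfbr1, which was lower in KO, at -0.30 (-0.51 to -0.08, adjusted p = 0.0636). In the authors' deposited table Tgfb1 passed at 0.48 (false discovery rate 0.0466) and Tgfbr1 at -0.30 (0.0495). Tgfbr2 at 0.28 (0.02 to 0.53), Tgfbr3 at -0.02 (-0.33 to 0.29), Ltbp1 at 0.08 (-0.25 to 0.41) and Ltbp2 at -0.10 (-0.60 to 0.41) overlapped between genotypes.

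The muscle marker sums of KO day 7 and WT day 7 did not overlap, nor did those of the 8 pericyte and smooth muscle markers, at 1110 to 2380 CPM in KO and 539 to 782 CPM in WT. These 2 sums may not be separate, since they ranked the libraries alike in WT day 0, WT day 14 and KO day 14. By replicate, KO day 7 had muscle sums of 7010, 5480, 9280 and 13400 CPM and pericyte sums of 1110, 1600, 1920 and 2380 CPM. The pericyte list includes Des, which muscle fibres also express, and how much of the pericyte sums is muscle signal was not tested. With the muscle covariate Ltbp3 stood at 0.77, Tgfb2 at 0.72 and Smad3 at 0.47, each still past the threshold. Because the muscle sums of the genotypes did not overlap, this fit cannot tell muscle content from genotype. Of the pericyte markers 3 of 8 were called higher in KO. Of the tendon markers 5 of 10 were, Scx among them, where Col1a1 and Col1a2 make up most of the sum. Their part in the result was not tested. The counts of other pathway genes are to be read against the 9.39% of all tested genes that were higher and the 5.42% that were lower. Of them, 11 of the 27 latency and activation genes were higher in KO and 2 lower, with Ltbp4 at 1.13 (253 ± 28.8 against 115 ± 15.4 CPM), Fmod at 1.01 and the integrin gene Itgb3 at 0.61. Itgav, whose product pairs with several beta integrins that activate TGF-beta, stood at -0.42 (adjusted p = 0.014). Of the 16 negative regulators 4 were higher and 0 lower, among them Smad6 at 0.77 and the corepressor gene Ski at 0.66, and of the 17 transduction genes 1 was higher, the co-receptor gene Eng at 0.68, and 2 lower. The 28 target genes went both ways, 5 higher and 3 lower, with Col5a1 at 0.96 and Fn1 at 0.64 against Has2 at -0.96 and Acta2 at -0.58.

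At day 14 Tgfb2 was the one gene of the 10 that passed the threshold between genotypes. It was higher in KO by 0.61 (SE 0.13, adjusted p = 0.0167), or 1.52-fold, at 106 ± 13.4 against 69.3 ± 11.2 CPM, and the summed muscle markers overlapped widely between these groups. The call ended without WT day 14 replicate 1 (adjusted p = 0.0606), WT day 14 replicate 2 (0.0642) or KO day 14 replicate 3 (0.0705), and in a fit to both groups alone (0.0829), with the value between 0.52 and 0.61. This is 1 of 10 genes, where 1.78% of all tested genes passed (1.06% higher and 0.719% lower), and the 1 of 10 without overlap between genotypes, where 6.13% of all tested genes had none. The medians were 0.18 and -0.01. Ltbp3 stood at 0.20 (95% interval -0.03 to 0.44), Smad3 at 0.25 (0.05 to 0.45, adjusted p = 0.184), Tgfb3 at 0.35 (0.06 to 0.63, adjusted p = 0.206) and Tgfbr3 at 0.33 (0.02 to 0.65, adjusted p = 0.261). With edgeR, 0 of 27 latency and activation genes, 0 of 17 transduction genes and 0 of 16 negative regulators passed, and DESeq2 called 2, 0 and 0. At an unadjusted edgeR p below 0.05 there were 5, 2 and 5, and over all 18918 tested genes there were 3154. Of the 28 target genes 10 had an unadjusted edgeR p below 0.05, and the median log2 change of the list was -0.21. The 1 that passed with edgeR, Col5a1, was higher in KO by 0.73 (adjusted p = 0.0434).

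From KO day 7 to KO day 14, Tgfb2 rose by 0.56 (SE 0.13, adjusted p = 0.00599) and Smad3 by 0.53 (SE 0.09, adjusted p = 0.00124), and Ltbp2 fell by 1.47 (SE 0.24, adjusted p = 0.000843). These 2 rises and 1 fall of 10 compare with 15.7% of all tested genes (7.09% higher and 8.57% lower), and the medians were 0.30 and 0. For 6 of the 10 genes, these 3 with Tgfb1, Tgfbr1 and Ltbp3, the libraries of both days did not overlap, where 20.6% of all tested genes did not. Ltbp3 stood at 0.30 (95% interval 0.06 to 0.54, adjusted p = 0.0798) and Tgfbr1 at 0.31 (0.09 to 0.53, adjusted p = 0.0514). Ltbp4 rose by 1.27 and Zfyve9 by 0.40, and Nrros fell by 1.02. Cell markers moved over this interval too: 9 of 12 macrophage and 3 of 6 neutrophil markers fell, and 5 of 10 tendon and 3 of 10 endothelial markers rose. Of the muscle markers 0 of 15 were called. The part of these cells in the changes was not tested.

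Whether the genotype difference changed between the days was tested as an interaction, the KO difference at day 14 minus that at day 7. With edgeR 0 of the 10 genes and 0% of all tested genes passed, with limma-voom 0 of 10, and with DESeq2 0 of 10 and 191 genes in all. At an unadjusted p below 0.05 there was 1 of the 10, Ltbp3, and 2039 of all tested genes. The Ltbp3 interaction was -0.51 on the log2 scale, a smaller difference at day 14 (95% interval -0.85 to -0.18, adjusted p = 0.268). For Tgfb2 the interaction was -0.02 (-0.40 to 0.35).

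**Figure D4:**
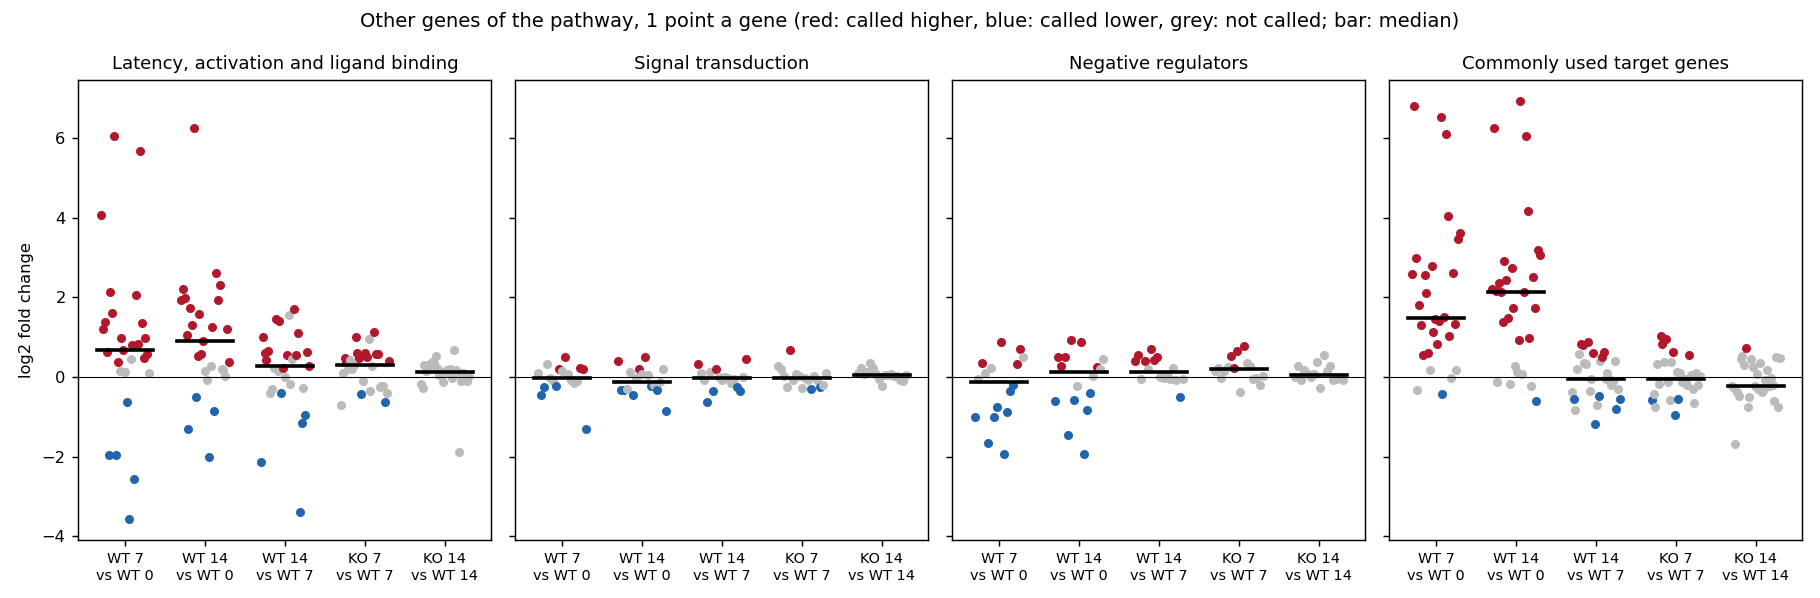
Log2 fold changes of the other pathway genes in 4 lists and 5 comparisons, 1 point a gene and a bar at the median, coloured by the call at an adjusted p below 0.05. The target genes sit high in both comparisons with WT day 0 (medians 1.47 and 2.13) and close to or below 0 in the other 3 (medians -0.05, -0.05 and -0.21), and the medians of the transduction genes lie between -0.12 and 0.05.

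Across the 20 libraries the log2 CPM of Tgfb2 and Smad3 had a Pearson r of 0.91, and 0.59 after the group means were removed. Ltbp2 and Smad3 had an r of -0.77 across libraries and 0.16 within groups, so their opposition lay between groups and not among the libraries of a group. Tgfb1 and Tgfbr3 had the reverse pattern, with an r of 0.09 across libraries and 0.90 within groups. These are descriptions over libraries that share groups and differ in depth, and the pairs named were picked from 45. The r of 0.90 was the highest within-group value of the 45. Predicted and unnamed genes were left out of the search for the genes most like each member. Among the rest, the genes most like Tgfb2 over the 20 libraries were Scara3 (r = 0.951), Prelp (0.95) and Phldb1 (0.944), and those most like Smad3 were Zbtb4 (0.969), Reck (0.965) and Npr2 (0.963). Tgfbr3 was most like Aplp2 (0.968), Pla2g5 (0.967) and Plpp3 (0.963), and Ltbp3 most like Ssc5d (0.976), Parva (0.944) and Adgrl1 (0.943). Ltbp2 was most like Thoc3 (0.964), Ptk2b (0.953) and Ssrp1 (0.943). The highest r for Ltbp1 among the genes searched was 0.85, with Tmem167b, the lowest such value of the 10 genes.

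Some members overlap genes on the opposite strand, and because strand use is not given in the sources used here, their reads cannot be told apart there. Ltbp2 shares 764 exon bases with the antisense gene D030025P21Rik (mean count 27.2). The exon overlaps of Tgfb2 and Tgfb3 on the opposite strand are with genes of mean counts of 12.6 or less.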

How the data were processed

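The authors deposited raw counts per gene for the 20 libraries, and the submitters' processing notes name FastQC, the aligner STAR and the build mm10. The sources used here do not give tool versions, the counting tool, the annotation or the strand setting. A table of the authors' own edgeR comparisons holds log2 fold changes and p-values with false discovery rates, per the file headers; it entered no test. For the 10 genes its calls were the same in 37 of 40 cases, with log2 changes that differed by at most 0.02.

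The analysis used edgeR 4.0.16 with limma 3.58.1 in R 4.3.3. Genes were kept by filterByExpr, library sizes were scaled with TMM, and all 20 libraries entered 1 quasi-likelihood model with a mean for each group and robust dispersions. Comparisons used the two-sided quasi-likelihood F test, and calls were made where the p, adjusted by Benjamini-Hochberg over all 18918 tested genes, was below 0.05. Verbs of change are used of called genes only. Correlations used log2 CPM with a prior count of 2. The search for the genes most like a member left out names with Gm or BC and digits, Rik, AC or AL clones and -ps. Level per length is CPM divided by the length of the merged exons in GENCODE vM21 (GRCm38), which also gave the coordinates.

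One overlap between gene annotations is not reported here. Sample titles gave the group and replicate number of each library. No 2 libraries of a group were duplicates (smallest chi-square per degree of freedom 14.1). The code was tested on simulated counts. The 4 pathway lists, the 10 marker lists and the 10 genes were chosen with earlier results of these data known. Of 91 listed pathway symbols 88 were in the table, and all 88 were tested. In a comparison, the genes of a list that could be named were the 3 called higher and the 3 called lower at the smallest p, and for each of the 10 genes the 3 genes most like it.

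Each result was recomputed with other scalings (RLE, upper quartile), without a filter or with a stricter one (1 CPM or more in 4 or more libraries), and with limma-voom or DESeq2 1.42.0. It was also recomputed in a fit to only the groups compared, with replicate number as a block, with skeletal muscle marker level as a covariate, and without each library in turn.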

Additional observations from a re-analysis of the deposited data

Results flagged for a closer look

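Smad3 in WT day 7 replicate 1 was set apart from its group, at 70.0 CPM where the other 3 libraries had 81.7 to 83.1 CPM. Its gap to the nearest library, as a share of the group's range, was above the 95% critical value for 4 samples (Dixon). The 10 genes in 5 groups gave 50 such checks, and chance sets apart about 1 in 20. Without this library the KO difference of Smad3 at day 7 stood at 0.29 (adjusted p = 0.0601, edgeR) in place of 0.34 (adjusted p = 0.0219).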

How the results depend on the processing

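Over the 10 genes and 7 comparisons there were 70 results, 23 of them called. Under 29 alternatives none of the 23 calls turned its direction, and 27 of 667 alternative values no longer passed. The calls that were lost under some alternative were those of Ltbp3 at WT day 7 and Ltbp1 at WT day 14 against WT day 0, Smad3 in KO at day 7 and Tgfb2 in KO at day 14. The number of genes called in KO against WT at day 7 was 3, and 5 with DESeq2, 6 with the compared groups alone and 2 to 5 when single libraries were left out. Over all tested genes it was 2802, and 3684 with DESeq2 and 3499 with the compared groups alone. The added calls among the 10 genes were of Tgfb1, Tgfb3 and Tgfbr1. At day 14 the number was 1, and 0 with the compared groups alone and 0 to 2 when single libraries were left out (2 without WT day 14 replicate 4, where Tgfbr3 at 0.48 also passed). From KO day 7 to KO day 14 it was 3, and 5 with DESeq2, 5 with the compared groups alone and 3 to 5 when single libraries were left out. Over all tested genes this last number was 2962, and 3711 with DESeq2 and 2652 with the compared groups alone. The causes were not tested.

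No clear pairing by replicate number was seen, since at most 2 of 4 same-numbered pairs correlated above 0.1. Some did, such as replicates 3 and 4 of WT and KO day 14 (r = 0.27 and 0.21), and so few pairs cannot exclude a shared origin. At most 2 of 4 libraries correlated best with their own number, in any pair of groups. With the replicate block, the numbers of called genes were 6, 7, 4, 4, 1, 4 and 0 in the 7 comparisons, against 6, 6, 4, 3, 1, 3 and 0 without it. Over all tested genes they were 12227, 10414, 5879, 3141, 345, 3146 and 0 with the block, against 12133, 10268, 5745, 2802, 337, 2962 and 0. Ltbp3 at WT day 7 was at an adjusted p of 0.05 with the block.

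All values that changed sign belonged to genes that were not called, with sizes up to 0.27 and adjusted p of at least 0.375. With the muscle covariate these were Tgfbr2 (-0.27) and Ltbp1 (-0.26) in WT day 7 against day 0, Tgfb1 (0.09) and Tgfbr3 (0.07) from WT day 7 to day 14, Tgfbr3 (0.08) in KO at day 7 and the Tgfb3 interaction (-0.09). The Tgfb2 interaction was 0.01 with upper-quartile scaling and the Ltbp1 interaction 0.01 with limma-voom. When single libraries were left out, the ranges that crossed 0 were, in WT day 7 against day 0, -0.11 to 0.07 for Tgfb1 and -0.06 to 0.09 for Tgfbr2. In WT day 14 against day 0 they were -0.24 to 0.05 for Tgfb1 and -0.15 to 0.02 for Tgfbr1, and from WT day 7 to day 14 -0.21 to 0.08 for Tgfb1 and -0.18 to 0.08 for Tgfbr3. In KO at day 7 they were -0.13 to 0.10 for Tgfbr3, -0.04 to 0.17 for Ltbp1 and -0.35 to 0.07 for Ltbp2, and at day 14 -0.08 to 0.23 for Ltbp1. For the interaction they were -0.18 to 0.09 for Tgfb2, -0.04 to 0.16 for Tgfb3, -0.16 to 0.15 for Ltbp1 and -0.28 to 0.18 for Ltbp2.

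Over all tested genes, the number called fell from 12133 to 6186 in WT day 7 against day 0, from 5745 to 3201 from WT day 7 to day 14 and from 2802 to 1038 in KO at day 7 with the muscle covariate. In KO at day 14 it was 337, and 759 with DESeq2 and 86 with the compared groups alone. In KO at day 7 the transduction genes called numbered 5 with DESeq2 and 5 with the stricter filter in place of 3, and the target genes 5 without a filter in place of 8. In KO at day 14 the target genes called numbered 3 with the stricter filter and 5 with DESeq2 in place of 1.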
